A study of Mus musculus with 18 samples.

Results

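The 52 genes of the TGF-beta and BMP pathways described here were found by symbol among the 24421 genes of both count tables, and all 52 were present. They fall into 10 BMP and GDF ligands, 5 TGF-beta and activin ligands, 6 secreted antagonists, 3 latent TGF-beta binding proteins, 6 type I and 4 type II receptors, 2 co-receptors, 6 signalling Smads, 5 feedback inhibitors and 5 target genes. Ligands of this family are secreted, many of them held in the matrix by latent binding proteins or captured by secreted antagonists. A free ligand joins type II and type I receptors, which phosphorylate receptor Smads. TGF-beta and activin receptors act through Smad2 and Smad3, BMP receptors through Smad1, Smad5 and Smad9, and Smad4 is shared. In bone marrow stroma the BMP arm is known for driving osteoblast differentiation, and the Id genes are direct transcriptional targets of BMP receptor Smads.

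RNA was sequenced in 18 libraries of mouse (C57BL/6) bone marrow mesenchymal stem cells (MSCs), 3 in each of 6 groups, to ask how loss of POT1a, a telomere-binding protein of the shelterin complex, alters these cells. In culture, CD51+/PDGFRα+ MSCs of mice aged 4 to 6 months carried either Pot1a flox/flox (called Δ/Δ after Cre) or wild/wild (wt/wt) alleles together with a flox-stop-flox tdTomato reporter. All 4 cultured groups received Cre vesicles at 10 μL per well for 12 hours and were re-sorted for tdTomato 48 hours later, and RNA was taken at week 4 (Δ/Δ, wt/wt) and week 1 (Δ/Δ, wt/wt). The 2 other groups were tdTomato+ marrow cells sorted from NG2-cre mice aged 2 weeks, Δ/Δ and wt/Δ by title. NG2-cre is driven from the Cspg4 gene and is also active in pericytes, so both sorted groups can hold other perivascular cells. The genotype field of all 6 sorted libraries reads fl/fl, and these libraries were therefore grouped by title.

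Total counts were 12807832 to 90717232 per cultured library and 28918757 to 49992698 per sorted library. Pot1a was not called lower in any comparison. In Δ/Δ cells it was called higher at week 4 than at week 1 (edgeR log2 difference 0.40, SE 0.11, adjusted p = 0.0130). Its level was 42.8 to 47.9 CPM (counts scaled to a common library size) in Δ/Δ and 33.2 to 37.8 in wt/wt at week 4, 31.1 to 37.9 in Δ/Δ and 33.8 to 36.6 in wt/wt at week 1, and 19.1 to 31.0 in Δ/Δ and 26.9 to 34.3 in wt/Δ among sorted cells, where the log2 difference was -0.17 (SE 0.24, adjusted p = 0.824). Gene-level counts cover every exon and do not isolate the floxed part, so they do not check the deletion, and each direction below is that of the libraries as labelled. The study itself measured less Pot1a mRNA by qPCR in its deleted cultured and sorted cells. The gate genes Pdgfra and Itgav averaged 231 and 295 CPM in week 4 Δ/Δ cells and 93.6 and 269 CPM in week 4 wt/wt cells, and haematopoietic marker sums stayed under 20 CPM in culture. In sorted cells, endothelial markers (summed CPM 2629 to 2771 in Δ/Δ, 1810 to 2313 in wt/Δ) and haematopoietic markers (1440 to 1823 in Δ/Δ, 915 to 2188 in wt/Δ) were present. Megakaryocyte markers were high in Δ/Δ replicate 3 (1005 CPM) and wt/Δ replicate 2 (1848 CPM), against 36.8 to 93.0 CPM in the other 4. Xist was counted in all 3 Δ/Δ and in wt/Δ replicate 2, whereas wt/Δ replicates 1 and 3 had 3535 and 3624 counts of the Y-linked Ddx3y, so sex and genotype partly overlap in the sorted set.

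Throughout, a level is in CPM after TMM scaling, a difference is a log2 fold change with its standard error (SE) from edgeR's quasi-likelihood fit, and "called" means an adjusted p under 0.05 over all genes tested. Each group has n = 3, and p-values measure the spread between libraries within groups. All cultured libraries were fitted together. The p-value of a genotype or time comparison in culture therefore also rests on the spread within the cultured groups not compared. Fits of only the libraries compared are given at the end. Of the 52 members, 50 passed the filter on low counts in culture (Bmp7 and Bmpr1b did not) and 51 did in sorted cells (Bmpr1b did not). In bulk RNA, fewer cells of a type and less RNA per cell cannot be told apart.

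Across all groups the most abundant member per kilobase of exon was Id3, a dominant-negative helix-loop-helix factor induced by BMP, at 422 CPM per kilobase in week 4 Δ/Δ cells, 345 in week 4 wt/wt, 323 in week 1 Δ/Δ, 328 in week 1 wt/wt, 665 in sorted Δ/Δ and 890 in sorted wt/Δ. Next in all 4 cultured groups came Tgfb3, a TGF-beta ligand, at 167 to 241 CPM per kilobase, and next in both sorted groups came Chrdl1, a BMP antagonist, at 94.7 in Δ/Δ and 114 in wt/Δ. Sorted and cultured libraries came from separate tables and experiments, and no test was made between them.

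**Figure D1:**
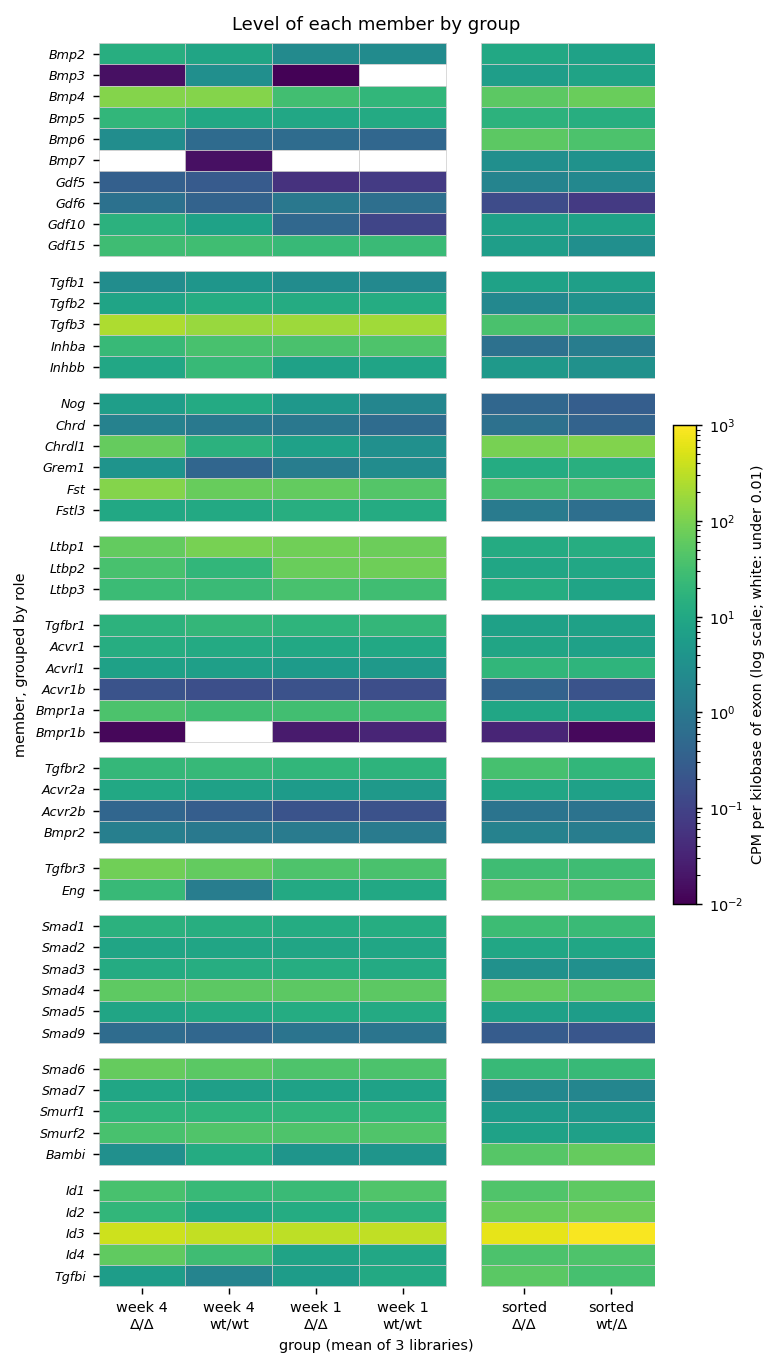
Mean level of the 52 members in CPM per kilobase of exon (colour, log scale, white under 0.01), with groups in columns (n = 3 each) and members in rows grouped by role. Id3 is brightest in every column, Smads and type I and II receptors differ little in colour between Δ/Δ and wt/wt columns, and Bmp3 stands out in week 4 wt/wt cells among cultured groups.

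Genotypes were compared first at week 4. In Δ/Δ MSCs 14 of the 50 tested members were higher and 7 were lower (42% called), where 15.7% of all 13169 genes tested were called, 9.20% higher and 6.46% lower. The median log2 fold change of the members was 0.29, beside 0.002 over all genes. Δ/Δ libraries lay wholly above wt/wt in 16 members and wholly below in 7, or 46% of those tested, beside 27.4% of all genes. Members were chosen with earlier results of these data known, so shares of members beside all genes are descriptions only. The called members were ligands, secreted antagonists, Eng, Ltbp1, Bambi and target genes, and none of the 9 type I or type II receptors tested and none of the 6 signalling Smads was called.

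**Figure D2:**
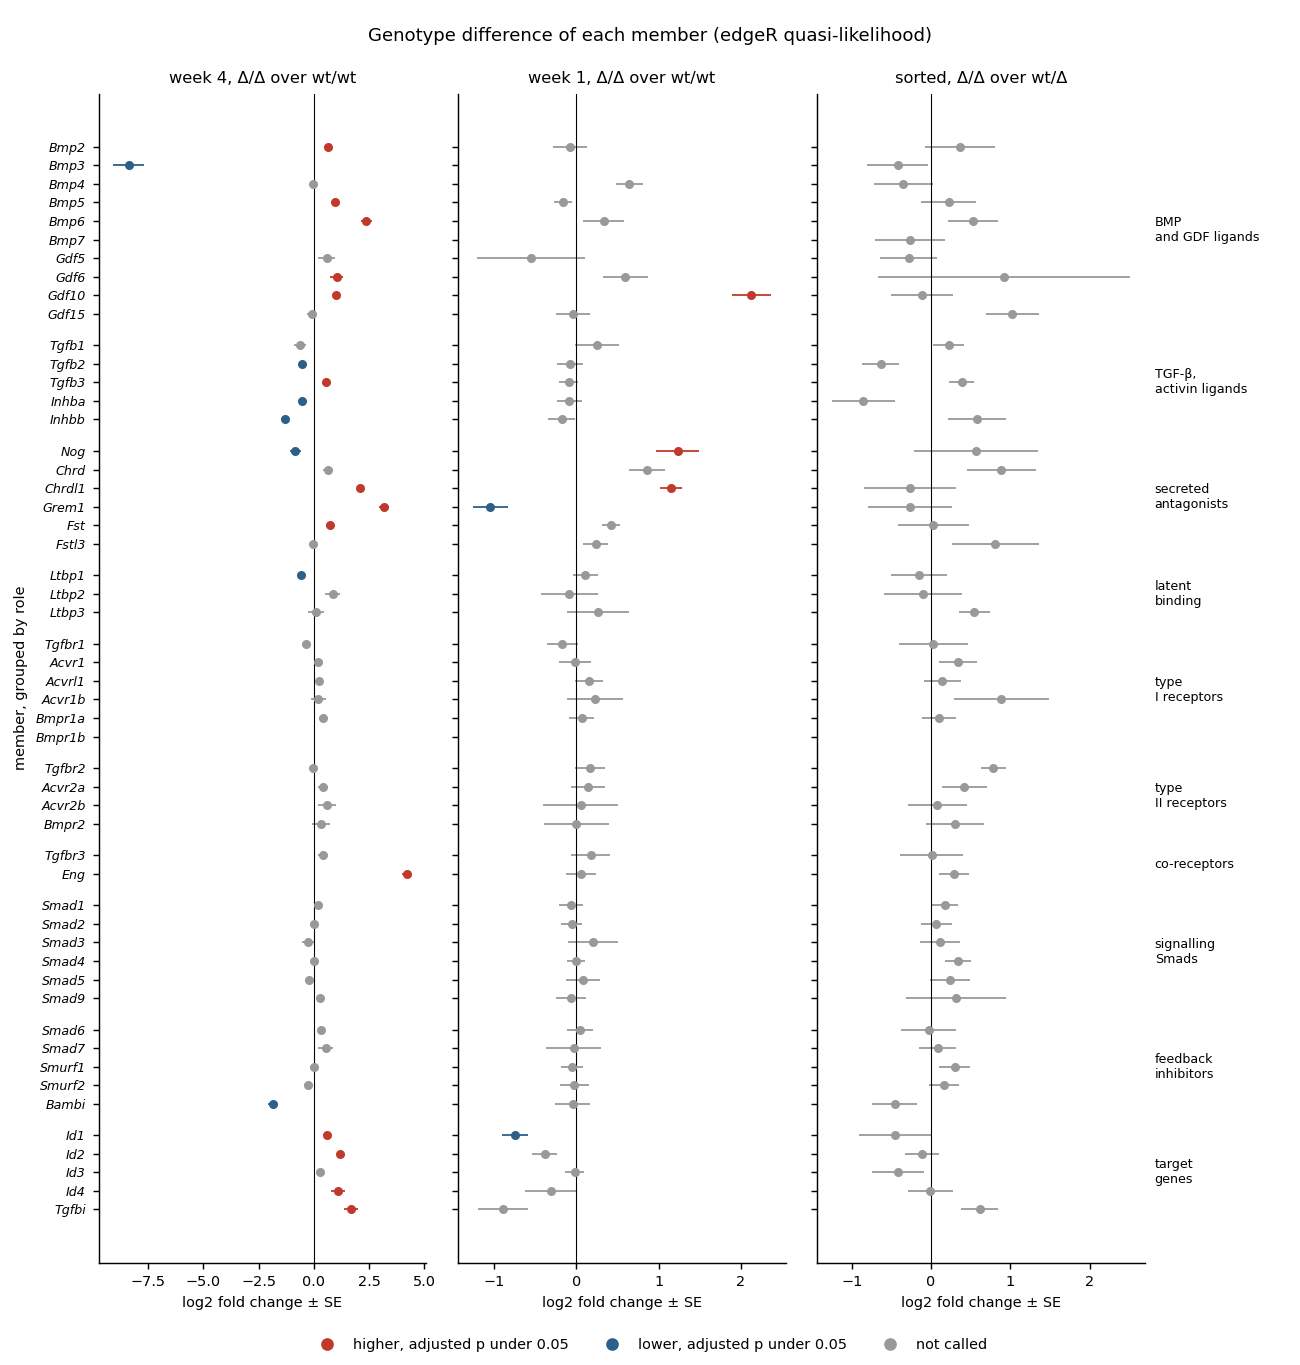
Log2 fold change ± SE of each member (rows, by role) for week 4 Δ/Δ over wt/wt, week 1 Δ/Δ over wt/wt and sorted Δ/Δ over wt/Δ, each panel on its own axis. Red and blue points were called higher and lower in Δ/Δ, grey points were not called, and Bmp3 is left out at week 1 because it had 5 counts in Δ/Δ and 0 in wt/wt. Called points reach 4.20 (Eng) and -8.40 (Bmp3) at week 4, number 5 at week 1 and number 0 in sorted cells.

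Eng encodes endoglin, a co-receptor for TGF-beta and BMP ligands that is also an MSC surface marker (chromosome 2, 32646595 to 32682669, GRCm38). At week 4 its level was 80.9, 99.7 and 102 CPM in Δ/Δ libraries, against 3.44, 6.19 and 5.46 CPM in wt/wt libraries. Every Δ/Δ library lay above every wt/wt library, with a log2 fold change of 4.20 (SE 0.21, adjusted p = 2.63e-07). Endothelial cells also express Eng. In the same libraries the 10 endothelial markers summed to 6.74 to 8.45 CPM in Δ/Δ and 9.12 to 12.4 CPM in wt/wt, 8 of the 10 averaged under 1 CPM, and Cdh5 and Emcn were at 0 in all 6. The part of endothelial cells in the Eng difference was not tested. The other co-receptor, Tgfbr3 (betaglycan), had 434, 655 and 535 CPM in Δ/Δ and 289, 476 and 459 CPM in wt/wt. Those groups overlapped and Tgfbr3 was not called (0.41, SE 0.24, adjusted p = 0.309).

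Secreted antagonists changed in both directions, with 3 of 6 higher and 1 lower in week 4 Δ/Δ cells. Grem1, a gremlin-family antagonist of BMP2, BMP4 and BMP7 (chromosome 2, 113746164 to 113758646), had 12.0, 15.2 and 20.0 CPM in Δ/Δ against 1.79, 1.79 and 1.67 CPM in wt/wt, a log2 fold change of 3.17 (SE 0.24, adjusted p = 2.31e-06). Chrdl1, a chordin-like BMP antagonist on the X chromosome, reached 492, 498 and 355 CPM in Δ/Δ, against 113, 97.5 and 109 CPM in wt/wt (2.08, SE 0.14, adjusted p = 9.02e-07). Neither gene's groups overlapped, and in Chrdl1 even the lowest Δ/Δ library was far above the highest wt/wt library. Fst (follistatin), which binds activins and was the most abundant antagonist in culture, had 527, 501 and 570 CPM in Δ/Δ and 313, 335 and 315 CPM in wt/wt (0.73, SE 0.11, adjusted p = 0.000636). Nog (noggin), in contrast, was lower at 8.87, 10.6 and 11.6 CPM in Δ/Δ, against 11.7, 20.7 and 23.2 CPM in wt/wt (-0.84, SE 0.25, adjusted p = 0.0350). Its groups barely separated, and the call was lost on leaving out any library but wt/wt replicate 1. Chrd and Fstl3 were not called, and Fstl3 shares 47.3% of its exon bases with a gene on the opposite strand, from which an unstranded library cannot separate it.

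Of the 9 BMP and GDF ligands tested, 5 were higher and 1 lower in week 4 Δ/Δ cells. Bmp3, a family member that opposes osteogenic BMPs (chromosome 5, 98854415 to 98884396), was read 8 times in all in the Δ/Δ libraries, 7 of them in replicate 2, against 1401 times in wt/wt. Its level was 0, 0.346 and 0.0108 CPM in Δ/Δ and 22.2, 26.9 and 17.9 CPM in wt/wt, so that Δ/Δ held 0.259% of the wt/wt level (95% exact interval 0.112% to 0.511%, counting error only). Bmp6, a ligand of the osteogenic BMP class that also induces hepcidin in liver, was higher at 8.31, 10.6 and 12.8 CPM in Δ/Δ, against 2.54, 2.38 and 1.35 CPM in wt/wt (2.38, SE 0.24, adjusted p = 2.25e-05). Bmp3 and Bmp6 thus separated the genotypes completely and in opposite directions.

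Gdf10, a BMP3-like ligand, had 81.3, 74.8 and 84.8 CPM in Δ/Δ and 44.7, 40.9 and 34.0 CPM in wt/wt at week 4 (1.01, SE 0.16, adjusted p = 0.000869). Bmp5 had 76.8, 84.7 and 77.6 CPM in Δ/Δ and 35.9, 41.9 and 44.0 CPM in wt/wt (0.97, SE 0.11, adjusted p = 5.88e-05), although 46.7% of its exon bases are shared with a gene on the opposite strand. Gdf6 was low, with 2.50, 1.68 and 3.60 CPM in Δ/Δ and 1.72, 1.17 and 1.13 CPM in wt/wt, and its groups overlapped despite the call (1.04, SE 0.29, adjusted p = 0.0291). The call of Gdf6 was lost without Δ/Δ replicate 1 or 3 or wt/wt replicate 2 or 3 (adjusted p = 0.0507 to 0.159). Bmp2, a potent inducer of bone, rose by less (0.64, SE 0.20, adjusted p = 0.0431), a call lost without Δ/Δ replicate 2 or 3 or wt/wt replicate 1 or 2 (adjusted p up to 0.143). Bmp4, the most abundant BMP ligand at week 4, did not separate the genotypes at 302, 237 and 260 CPM in Δ/Δ and 347, 262 and 201 CPM in wt/wt, and Gdf5 and Gdf15 were not called either.

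The TGF-beta and activin ligands mostly went the other way, with 3 of 5 lower and 1 higher. Inhbb, the activin and inhibin βB subunit, had 38.6, 40.6 and 40.8 CPM in Δ/Δ against 71.1, 110 and 117 CPM in wt/wt (-1.32, SE 0.16, adjusted p = 0.000130), with tight Δ/Δ libraries below all wt/wt libraries. Inhba, the βA subunit, and Tgfb2 were lower by smaller amounts (-0.54 and -0.52, adjusted p = 0.0334 and 0.0446). The call of Inhba was lost without Δ/Δ replicate 2 or 3 or wt/wt replicate 1 or 3 (adjusted p up to 0.115), and that of Tgfb2 without Δ/Δ replicate 1 or 3 or wt/wt replicate 2 or 3 (up to 0.148). Tgfb3 had 879, 792 and 775 CPM in Δ/Δ and 556, 568 and 571 CPM in wt/wt (0.53, SE 0.11, adjusted p = 0.00671), and Tgfb1 was not called. Of the exon bases of Tgfb3, 12.4% are shared with genes on the opposite strand. Among the latent TGF-beta binding proteins, which tether the ligand to the matrix, Ltbp1 had 713, 656 and 660 CPM in Δ/Δ and 1087, 1015 and 923 CPM in wt/wt (-0.58, SE 0.15, adjusted p = 0.0200), with an adjusted p of 0.0520 and 0.0652 without Δ/Δ replicate 2 or 3. Ltbp2 and Ltbp3 were not called, and wt/wt replicate 1 was the lowest of the 6 libraries in both at 66.0 and 76.2 CPM.

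Of the 5 target genes among the members, 4 were higher in week 4 Δ/Δ cells, whereas of 16 other pathway targets read in the same fit 2 were higher and 3 lower (median log2 fold change -0.13). Tgfbi, a matrix protein induced by TGF-beta, had 14.3, 22.9 and 28.3 CPM in Δ/Δ and 3.74, 7.45 and 9.08 CPM in wt/wt (1.67, SE 0.32, adjusted p = 0.00306). Id2 had 46.5, 51.7 and 46.5 CPM in Δ/Δ and 22.8, 16.5 and 24.0 CPM in wt/wt (1.19, SE 0.15, adjusted p = 0.000157), and Id4 had 270, 214 and 202 CPM in Δ/Δ and 146, 66.1 and 113 CPM in wt/wt (1.08, SE 0.31, adjusted p = 0.0329). Both Id genes encode inhibitors of basic helix-loop-helix factors, and in neither did the genotypes overlap. Id1 rose less (0.58, SE 0.16, adjusted p = 0.0258). Without Δ/Δ replicate 1 or 3 or wt/wt replicate 2 the call of Id1 was lost (adjusted p up to 0.0997), and that of Id4 was lost without any library but wt/wt replicate 1 (up to 0.109). Id3 had 733, 709 and 827 CPM in Δ/Δ and 579, 622 and 651 CPM in wt/wt, groups that did not overlap, yet it was not called (0.29, SE 0.11, adjusted p = 0.108).

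Bambi, a decoy receptor that lacks a kinase and is itself a feedback target of the pathway, was lower at 17.5, 13.8 and 16.3 CPM in Δ/Δ, against 81.0, 54.2 and 39.9 CPM in wt/wt (-1.87, SE 0.21, adjusted p = 6.37e-05). The wt/wt libraries were spread widely but all lay above Δ/Δ. None of the other 4 feedback inhibitors, Smad6, Smad7, Smurf1 and Smurf2, was called. Smad6, which blocks BMP receptor signalling and was the most abundant of them per kilobase of exon, had 217, 154 and 253 CPM in Δ/Δ and 155, 175 and 166 CPM in wt/wt. Smurf2, a ubiquitin ligase and the highest of them in CPM, had 191, 254 and 211 CPM in Δ/Δ and 198, 271 and 323 CPM in wt/wt.

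Receptors and signalling Smads showed small differences. Log2 fold changes at week 4 ran from -0.35 to 0.40 over 5 type I receptors, from -0.02 to 0.59 over 4 type II receptors and from -0.24 to 0.29 over the 6 Smads. Bmpr1a, a BMP type I receptor, had 248, 279 and 216 CPM in Δ/Δ and 182, 160 and 220 CPM in wt/wt (0.40, SE 0.15, adjusted p = 0.0950). Tgfbr2, the TGF-beta type II receptor, had 151, 189 and 195 CPM in Δ/Δ and 124, 220 and 199 CPM in wt/wt (-0.02, SE 0.18, adjusted p = 0.965). Smad4, the partner of all receptor Smads, had 228, 201 and 198 CPM in Δ/Δ and 224, 184 and 213 CPM in wt/wt (0.01, SE 0.11, adjusted p = 0.961). In all 3 genes the genotypes overlapped.

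Other cell markers moved with these members at week 4. All 8 osteoblast markers were lower in Δ/Δ (summed CPM 9550 to 14715 in Δ/Δ, 20846 to 28392 in wt/wt, none at 0), and 3 of the 4 adipocyte markers tested were higher (86.1 to 117 CPM in Δ/Δ, 25.2 to 38.5 CPM in wt/wt, with Lep near 0). Their part in the differences of Bmp3, Bambi, Inhbb or any other member was not tested.

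**Figure D3:**
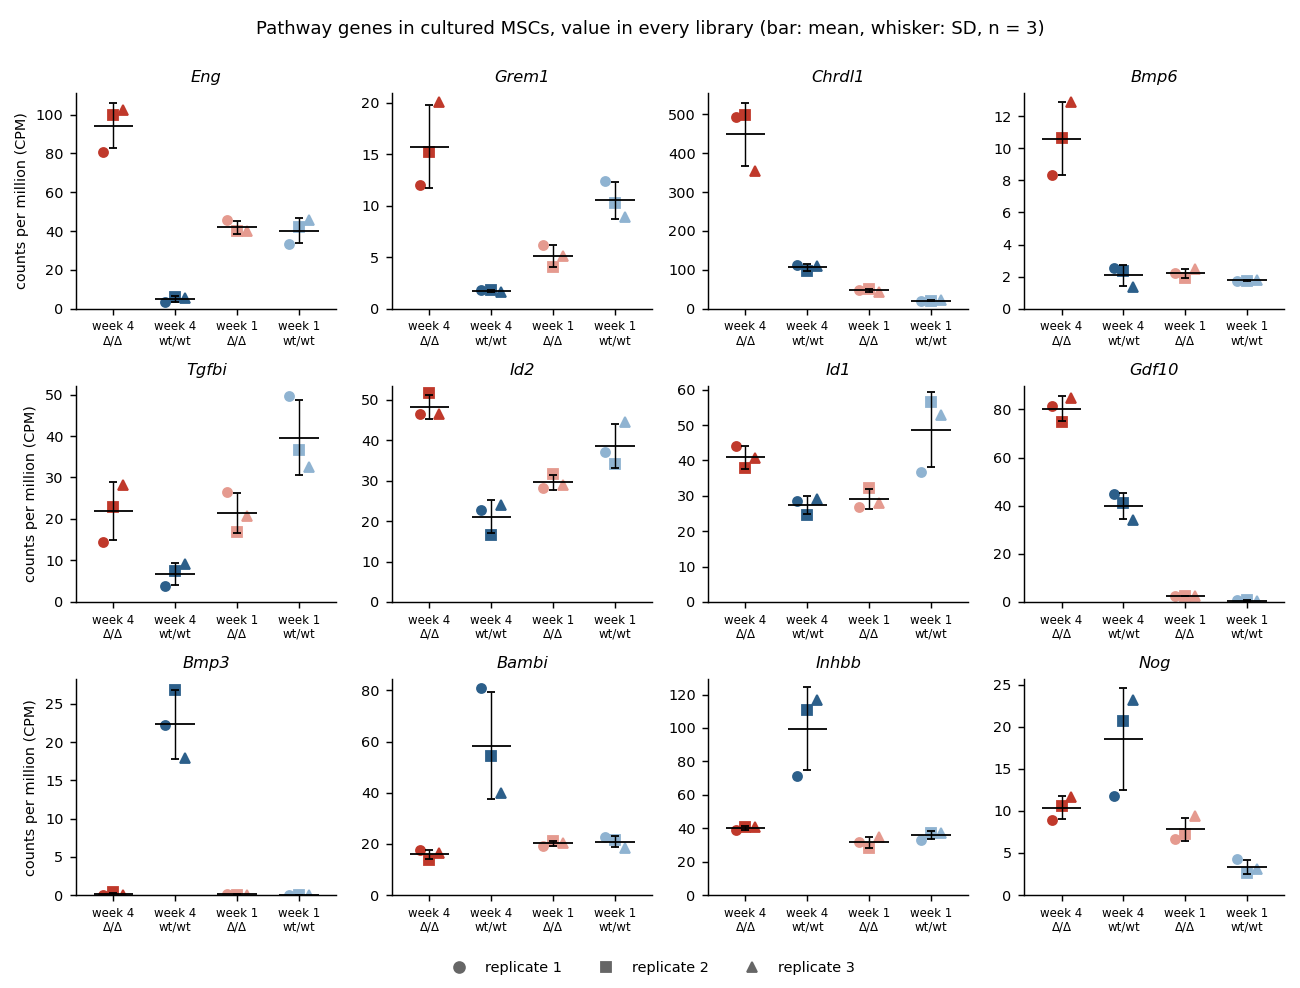
CPM of 12 members in each cultured library (symbols by replicate), with the group mean (bar) and SD (whisker, n = 3), axes starting at 0. Eng, Grem1, Chrdl1, Bmp6 and Gdf10 are highest in week 4 Δ/Δ cells, Bmp3, Bambi, Inhbb and Nog in week 4 wt/wt cells, and Tgfbi and Id1 in week 1 wt/wt cells.

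At week 1 far fewer members differed. In Δ/Δ cells 3 of 50 members were higher and 2 lower (10% called, against 1.02% of all genes, 0.752% higher and 0.266% lower), and the median log2 fold change of the members was close to 0, as was that of all genes. Groups did not overlap in 26% of the members, beside 22.6% of all genes. Gdf10 was barely expressed yet clearly split, at 2.30, 2.49 and 2.55 CPM in Δ/Δ and 0.655, 0.702 and 0.306 CPM in wt/wt (2.13, SE 0.23, adjusted p = 0.000982). Chrdl1 had 47.3, 51.1 and 44.0 CPM in Δ/Δ against 21.0, 20.3 and 22.6 CPM in wt/wt (1.16, SE 0.13, adjusted p = 0.00117). Both genes were therefore higher in Δ/Δ libraries at week 1 and at week 4.

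The other 3 calls at week 1 lay near the threshold and pointed opposite to week 4. Nog had 6.71, 7.29 and 9.39 CPM in Δ/Δ and 4.26, 2.61 and 3.10 CPM in wt/wt (1.23, SE 0.26, adjusted p = 0.05, just under the threshold). Grem1 had 6.17, 4.09 and 5.08 CPM in Δ/Δ and 12.4, 10.2 and 8.92 CPM in wt/wt (-1.04, SE 0.21, adjusted p = 0.0381). Id1 had 27.0, 32.2 and 27.9 CPM in Δ/Δ and 36.6, 56.5 and 53.0 CPM in wt/wt (-0.75, SE 0.16, adjusted p = 0.0478). None of these groups overlapped, but with any 1 week 1 library left out Grem1 had an adjusted p of 0.0573 to 0.195, and the calls of Nog and Id1 were lost without any week 1 library but wt/wt replicate 1. Eng did not differ at week 1 beyond its spread, with 45.9, 39.8 and 39.9 CPM in Δ/Δ and 33.1, 42.2 and 45.5 CPM in wt/wt, and no receptor, Smad or feedback inhibitor was called. The osteoblast marker sum at week 1 was 7666 to 9990 CPM in Δ/Δ and 10567 to 12767 CPM in wt/wt, with 0 of 8 markers called.

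Whether the genotype difference itself changed between weeks was tested by the interaction term, the week 4 log2 fold change minus that of week 1. It was called for 14 of 50 members, 9 upward and 5 downward (28%, against 7.15% of all genes, 4.08% upward and 3.08% downward). The largest upward differences were those of Grem1 (4.22, SE 0.32, adjusted p = 8.80e-06), Eng (4.15, SE 0.27, adjusted p = 4.75e-06) and Tgfbi (2.56, SE 0.44, adjusted p = 0.00327). Apart from Bmp3, whose estimate rests on a group at 0, the largest downward differences were those of Nog (-2.07, SE 0.36, adjusted p = 0.00344) and Bambi (-1.83, SE 0.30, adjusted p = 0.00223). Grem1, Id1 and Nog were called in opposite directions at the 2 weeks, and the difference was called in all 3.

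Week 4 was also compared with week 1 within each genotype, and these comparisons share their libraries with those above. Same-numbered wt/wt libraries deviated together between weeks, and the main fit does not pair them. A fit with a block within each genotype, not run for the interaction, is given at the end. In Δ/Δ cells 20 members were higher and 4 lower at week 4 than at week 1 (48%, against 35.1% of all genes, 18.8% higher and 16.3% lower). In wt/wt cells 15 were higher and 8 lower (46%, against 34.0% of all genes, 17.9% higher and 16.1% lower). Of ligands called in both genotypes, Gdf10 was higher at week 4 by 5.03 (SE 0.20) on the log2 scale in Δ/Δ and 6.14 (SE 0.22) in wt/wt, Bmp4 by 1.95 (SE 0.17) in Δ/Δ and 2.62 (SE 0.18) in wt/wt, and Bmp2 by 2.54 (SE 0.21) in Δ/Δ and 1.81 (SE 0.21) in wt/wt. All adjusted p-values of these 6 differences were at most 2.73e-05. Cycling markers were lower at week 4 in both genotypes, 5 of 5 called in each (summed CPM in Δ/Δ 134 to 186 at week 4 and 507 to 543 at week 1, in wt/wt 108 to 141 at week 4 and 530 to 565 at week 1). Of 8 osteoblast markers, 7 were called higher at week 4 in wt/wt (median log2 fold change 3.61) and 3 in Δ/Δ (0.578), with 0 lower in either. The part of either marker set in the differences over time, here and below, was not tested.

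Several members went opposite ways over time. Eng was higher at week 4 in Δ/Δ (1.17, SE 0.18, adjusted p = 0.000330) and lower at week 4 in wt/wt (-2.98, SE 0.20, adjusted p = 4.90e-07). Grem1 behaved likewise, with 1.63 (SE 0.21, adjusted p = 9.01e-05) in Δ/Δ and -2.59 (SE 0.24, adjusted p = 4.49e-06) in wt/wt. Id1 and Id2 were higher at week 4 by 0.49 and 0.70 in Δ/Δ (adjusted p = 0.0282 and 0.00307) and fell by 0.83 and 0.87 in wt/wt (adjusted p = 0.00153 and 0.000770). The call of Id1 over time in Δ/Δ was lost without Δ/Δ replicate 1 or 3 of either week (adjusted p = 0.0613 to 0.0857). The week 4 genotype differences of these 4 genes thus went with a lower level in wt/wt cells at week 4 than at week 1 as well as a higher one in Δ/Δ cells.

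In other members most of the week 4 difference lay with the wt/wt cells. Bmp3 was not read at all in week 1 wt/wt cells and had 5 counts in week 1 Δ/Δ cells, and its level in week 4 wt/wt cells was at least 624-fold higher than 3 counts over the week 1 wt/wt group. Bambi was called higher at week 4 in wt/wt (1.48, SE 0.21, adjusted p = 0.000174) and was not called over time in Δ/Δ (-0.35). Nog was higher at week 4 in wt/wt by 2.48 (SE 0.26, adjusted p = 1.69e-05) and not called in Δ/Δ (0.40), and Inhbb was higher by 1.48 (SE 0.16, adjusted p = 2.32e-05) in wt/wt. Tgfbi fell by 2.52 in wt/wt (SE 0.33, adjusted p = 7.90e-05) and had 0.04 in Δ/Δ. Bmp5 and Bmp6 showed the reverse pattern, being higher at week 4 in Δ/Δ by 1.05 and 2.25 (adjusted p = 1.70e-05 and 1.60e-05) and not called in wt/wt. Gdf6 was called lower in wt/wt at week 4 (-0.82, adjusted p = 0.0499), a call lost in the fit blocked by replicate (adjusted p = 0.0577) and without any library but week 4 wt/wt replicate 1 (0.0616 to 0.176).

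The promoters of 36 members were matched in RefSeq (GRCm38.p6), in windows from 250 bases before to 50 after the gene start. The palindrome GGCGCC, an element bound by BMP Smads, lay in the windows of 13 of 36 member genes (36.1%) and of 13.4% of 27025 genes in all. CAGAC, the Smad3 and Smad4 box, on either strand, was in 22 of 36 (61.1%) and in 53.2% of all. Base composition was not matched between members and all genes, and a match is a description of letters, not of binding. Among matched members called higher in week 4 Δ/Δ cells, the windows of Eng, Bmp5 and Bmp6 hold no GGCGCC. Tgfbr1, Acvr1b, Bmpr1a, Bmpr2, Smad5, Smad9, Smurf2 and Chrd hold GGCGCC and were not called at week 4. The windows of the 5 matched members that were higher in week 4 Δ/Δ cells and hold GGCGCC are shown, 3 target genes, the antagonist Grem1 and the ligand Gdf10, 5′ to 3′ on the gene's strand with both motifs in capitals (GTCTG is CAGAC on the other strand). Id2 lies at chr12:25096043-25096342 (minus strand), Id4 at chr13:48260866-48261165 (plus), Tgfbi at chr13:56609336-56609635 (plus), Grem1 at chr2:113758599-113758898 (minus) and Gdf10 at chr14:33923337-33923636 (plus).
Id2: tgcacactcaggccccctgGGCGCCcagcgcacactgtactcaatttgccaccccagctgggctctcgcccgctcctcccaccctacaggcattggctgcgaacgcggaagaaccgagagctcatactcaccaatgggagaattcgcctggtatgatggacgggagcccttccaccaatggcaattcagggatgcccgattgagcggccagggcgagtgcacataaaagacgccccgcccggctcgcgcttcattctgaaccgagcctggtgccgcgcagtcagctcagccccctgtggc
Id4: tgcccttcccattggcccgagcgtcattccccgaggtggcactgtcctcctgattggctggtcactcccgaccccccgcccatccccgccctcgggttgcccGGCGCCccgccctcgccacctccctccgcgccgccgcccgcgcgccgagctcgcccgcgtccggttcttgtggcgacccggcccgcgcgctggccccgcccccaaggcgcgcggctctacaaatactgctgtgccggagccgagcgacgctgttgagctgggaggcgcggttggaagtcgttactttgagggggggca
Tgfbi: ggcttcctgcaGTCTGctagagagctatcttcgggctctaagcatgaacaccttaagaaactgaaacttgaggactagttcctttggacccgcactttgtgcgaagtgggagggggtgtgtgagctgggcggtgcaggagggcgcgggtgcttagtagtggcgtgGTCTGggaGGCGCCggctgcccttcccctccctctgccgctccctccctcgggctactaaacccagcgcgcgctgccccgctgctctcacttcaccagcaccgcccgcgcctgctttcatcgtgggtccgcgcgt
Grem1: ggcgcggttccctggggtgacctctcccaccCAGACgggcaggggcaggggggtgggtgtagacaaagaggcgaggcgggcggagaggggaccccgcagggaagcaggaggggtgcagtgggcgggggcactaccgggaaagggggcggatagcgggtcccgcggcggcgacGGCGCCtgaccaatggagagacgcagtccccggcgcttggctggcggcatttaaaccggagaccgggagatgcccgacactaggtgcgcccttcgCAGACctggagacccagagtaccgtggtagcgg
Gdf10: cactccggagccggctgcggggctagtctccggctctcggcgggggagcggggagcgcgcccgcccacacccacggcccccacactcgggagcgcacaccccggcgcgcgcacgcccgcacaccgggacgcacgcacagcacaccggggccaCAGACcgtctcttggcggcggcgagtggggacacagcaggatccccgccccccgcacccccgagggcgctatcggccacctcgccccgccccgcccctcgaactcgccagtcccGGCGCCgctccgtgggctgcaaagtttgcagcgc
Each window holds 1 GGCGCC. That of Gdf10 also holds 1 CAGAC, and those of Tgfbi and Grem1 also hold 2 CAGAC boxes, on the other strand in Tgfbi and on the gene's strand in Grem1.

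A second list, 78 ligands, extracellular and intracellular regulators and target genes of the same pathway that are not members, was read in the same fits. At week 4, 4 of the 57 tested were higher and 9 lower in Δ/Δ (22.8%, beside 15.7% of all genes, 9.20% higher and 6.46% lower). The lower calls included 3 of 16 targets and 3 of 7 ligands and receptors. Dcn (decorin), a matrix proteoglycan that binds TGF-beta, averaged 104 CPM in Δ/Δ and 22.5 CPM in wt/wt (2.22, SE 0.25, adjusted p = 6.38e-05), and Hey1, a target gene encoding a transcriptional repressor, averaged 15.2 CPM in Δ/Δ and 7.18 CPM in wt/wt (1.09, SE 0.17, adjusted p = 0.000729). Lower genes included the target gene Dlx3, an osteoblast transcription factor (4.20 CPM in Δ/Δ, 25.7 in wt/wt, log2 fold change -2.62, SE 0.32, adjusted p = 0.000107), the target gene Postn, a matrix protein (47.0 to 54.0 CPM in Δ/Δ, 196 to 279 CPM in wt/wt, -2.30, SE 0.22, adjusted p = 1.49e-05) and the ligands Bmp8b (0.462 CPM in Δ/Δ, 3.70 in wt/wt, -3.00, SE 0.30) and Bmp8a (4.54 CPM in Δ/Δ, 14.1 in wt/wt, -1.62, SE 0.25). Bmp8a and Bmp8b are close paralogs between which reads may be split uncertainly. At week 1, 1 of 57 was called (1.75%, beside 1.02% of all genes), the secreted BMP modulator Bmper, at 11.6 CPM in Δ/Δ and 6.02 CPM in wt/wt (0.95, SE 0.15, adjusted p = 0.0106). At week 4 Bmper was lower in Δ/Δ (-0.89, SE 0.15, adjusted p = 0.00134), and the difference between weeks was called (-1.85, SE 0.22, adjusted p = 0.000223).

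In tdTomato+ cells sorted from young mice, no member was called by edgeR among 51 tested, and no gene was called among 14605 (0.00%). At an unadjusted p under 0.05 there were 6 of the 51 members, a share near the 12.3% of all genes. DESeq2 called 417 genes (3.55% of those it tested) and, at a smaller share, 1 of 46 members. That member was Tgfbr2, with 279, 272 and 261 CPM in Δ/Δ and 159, 144 and 169 CPM in wt/Δ. All Δ/Δ libraries lay well above all wt/Δ libraries, with a log2 fold change of 0.79 (SE 0.15, adjusted p = 0.240) by edgeR and 0.78 (SE 0.16, adjusted p = 0.000454) by DESeq2. Of the 3 wt/Δ libraries, the one with Xist was the lowest in Tgfbr2. All 3 Δ/Δ libraries had Xist, so 1 library cannot separate sex from genotype. A fit of the sorted cells with a term for Xist was also run. There the genotype difference rests on that 1 wt/Δ library, so the fit cannot separate them either. Leaving out both libraries rich in megakaryocyte markers left 279 and 272 CPM in Δ/Δ and 159 and 169 CPM in wt/Δ. The part of megakaryocyte RNA in the Tgfbr2 difference was not tested. Endothelial cells also express Tgfbr2. The MSC gate of the study leaves out CD31+ cells, and the study reports tdTomato signal exclusively within that gate. Its RNA methods name the sequenced cells as sorted tdTomato+ MSCs. Endothelial marker sums did not overlap between the groups either (2629 to 2771 CPM in Δ/Δ, 1810 to 2313 CPM in wt/Δ, none of the 10 genes at 0), and their part in this difference was not tested.

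The other 5 members at an unadjusted p under 0.05 were Gdf15 (1.02, SE 0.33), Tgfbi (0.61, SE 0.23), Ltbp3 (0.54, SE 0.20), Tgfb3 (0.38, SE 0.16) and Tgfb2 (-0.64, SE 0.24), with adjusted p of 0.296 to 0.401 by edgeR. Gdf15 had 10.8, 12.4 and 9.83 CPM in Δ/Δ and 4.76, 7.79 and 3.67 CPM in wt/Δ, and Tgfb2 had 10.1, 12.2 and 16.0 CPM in Δ/Δ and 22.1, 18.8 and 18.5 CPM in wt/Δ. These groups did not overlap, while those of Tgfbi did. Non-overlapping groups were found in 13.7% of the members, beside 20.5% of all genes, in sorted cells.

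**Figure D4:**
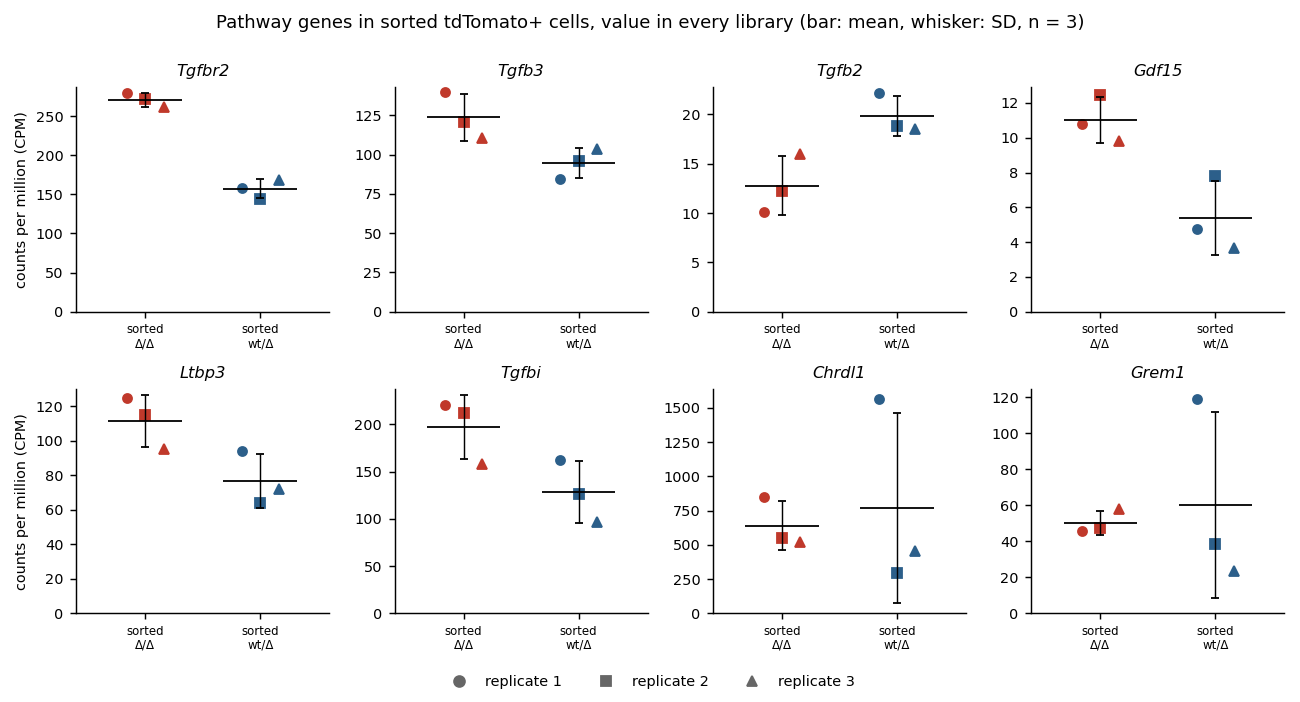
CPM of 8 members in each library of sorted tdTomato+ cells (symbols by replicate), with the group mean (bar) and SD (whisker, n = 3), axes starting at 0. Tgfbr2 separates Δ/Δ (261 to 279) from wt/Δ (144 to 169), and in Chrdl1 and Grem1 wt/Δ replicate 1 stands far above the other libraries.

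Eng, Chrdl1, Grem1, Bmp3, Bambi and Bmp6, all called at week 4 in culture, had overlapping groups in sorted cells. Eng had 189, 186 and 181 CPM in Δ/Δ and 187, 121 and 146 CPM in wt/Δ (0.29, SE 0.19, adjusted p = 0.593). Chrdl1 had 846, 550 and 524 CPM in Δ/Δ and 1563, 292 and 455 CPM in wt/Δ (-0.27, SE 0.57, adjusted p = 0.900), and Grem1 had 45.7, 47.4 and 57.8 CPM in Δ/Δ and 119, 38.3 and 23.4 CPM in wt/Δ (-0.26, SE 0.53, adjusted p = 0.891). In these 2 genes, and in Id1, Id3, Fst and Smad6, wt/Δ replicate 1 was the highest of the 6 libraries. Without that library the signs of Chrdl1 and Grem1 turned (0.77, SE 0.30, adjusted p = 0.350, and 0.70, SE 0.26, adjusted p = 0.336), as did those of Id1 (0.24) and Smad6 (0.53), and Fst had 0.83 (adjusted p = 0.265). Bmp3 was present in both groups, at 40.8, 50.9 and 40.3 CPM in Δ/Δ and 30.2, 97.6 and 48.9 CPM in wt/Δ (-0.42, SE 0.39, adjusted p = 0.720). Bambi, the most abundant feedback inhibitor in sorted cells, had 320, 223 and 197 CPM in Δ/Δ and 305, 461 and 249 CPM in wt/Δ (-0.46, SE 0.28, adjusted p = 0.562). Bmp4, the most abundant BMP ligand there per kilobase of exon, had 168, 101 and 108 CPM in Δ/Δ and 232, 82.9 and 165 CPM in wt/Δ (-0.35, SE 0.37, adjusted p = 0.767; 0.01 without wt/Δ replicate 1), and Bmp6 had 284, 187 and 172 CPM in Δ/Δ and 213, 100 and 133 CPM in wt/Δ (0.53, SE 0.31, adjusted p = 0.547). At an SE above 0.5, a doubling of Chrdl1 or Grem1 would not have been detectable in these libraries. Of the 59 other pathway genes tested in sorted cells, 0 were called, and 3 (Lrrc32, Dlx5 and Postn) had an unadjusted p under 0.05.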

How the data were processed

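Counts per gene were deposited by the authors as whole numbers, not normalized, in 1 table for cultured and 1 for sorted cells. Libraries were made with SMART-Seq v4 and Nextera XT, which keep no strand, reads were aligned to mm10 with HISAT2 2.0.4, and genes were counted with featureCounts 1.6.3 (submitters' processing notes). The gene annotation is not given in the sources used here. The 12 cultured libraries were fitted together and the 6 sorted libraries separately in edgeR 4.0.16 (R 4.3.3; filterByExpr with a minimum count of 10, TMM scaling, quasi-likelihood F test, Benjamini-Hochberg adjustment over all genes tested, threshold 0.05), and the scripts were tested on simulated data. DESeq2 1.42.0, other scalings and filters, a replicate block and leaving out each library were alternatives. Fits of only the 6 libraries compared and, in sorted cells, a term for Xist were also run. Exon lengths are from GENCODE M21. Members and gene lists were chosen with earlier results of these data known. Library values are given for members called with an absolute log2 fold change of at least 1 and the most abundant of each role, and up to 3 genes for each other pathway list. Same-numbered libraries deviated together in all 3 replicates only between weeks within wt/wt (correlations 0.152, 0.220 and 0.209, each over 0.1). That check alone pairs them. Between genotypes at week 4 the correlations were 0.636, 0.226 and -0.0835 for replicates 1, 2 and 3. Replicate 1 of both genotypes thus deviated together at week 4.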

Additional observations from a re-analysis of the deposited data

Results flagged for a closer look

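The difference between Δ/Δ and wt/wt MSCs was itself different at week 4 and week 1 for 14 members, by the interaction term of the edgeR fit (log2 fold change at week 4 minus that at week 1, n = 3 libraries a group). It was positive in 9 members, with 4.22 for Grem1 (adjusted p = 8.80e-06), 4.15 for Eng (adjusted p = 4.75e-06), 2.56 for Tgfbi (adjusted p = 0.00327), 2.05 for Bmp6 (adjusted p = 0.00279), 1.57 for Id2 (adjusted p = 0.000633), 1.32 for Id1 (adjusted p = 0.00292), 1.13 for Bmp5 (adjusted p = 0.000687), 0.92 for Chrdl1 (adjusted p = 0.00872) and 0.62 for Tgfb3 (adjusted p = 0.0351). It was negative in 5 members, with -12.63 for Bmp3 (adjusted p = 0.0212), -2.07 for Nog (adjusted p = 0.00344), -1.83 for Bambi (adjusted p = 0.00223), -1.14 for Inhbb (adjusted p = 0.00852) and -1.11 for Gdf10 (adjusted p = 0.0333). The value of Bmp3 depends on the prior count, since the week 1 wt/wt libraries were all at 0. The call of Bmp3 was lost without week 1 Δ/Δ replicate 1 or 3 (adjusted p = 0.149 and 0.0887). That of Gdf10 was lost without any Δ/Δ library of either week, week 1 wt/wt replicate 3 or week 4 wt/wt replicate 2 (up to 0.0982). That of Tgfb3 was lost without any library but week 1 Δ/Δ replicate 2, week 1 wt/wt replicate 1 and week 4 wt/wt replicate 1 (up to 0.0924). The other 11 were called under all 18 alternatives.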

How the results depend on the processing

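No called member changed direction under any alternative run. Of the 21 members called at week 4, 13 were called under every alternative that tested them, as were 2 of 5 at week 1 (Gdf10 and Chrdl1). The stricter filter tested neither Gdf10 nor Bmp3, which leaves them 12 alternatives in place of 13. At week 1 the count of 5 members became 1 where every library had to hold 10 counts or more, 8 with DESeq2 and 2 with the replicate block, and in sorted cells DESeq2 called 1 member against 0. With the stricter filter Gdf10 was not tested at week 1, and Nog, Grem1 and Id1 had adjusted p of 0.0623, 0.0526 and 0.0554. Why the other counts moved was not tested. Leaving out 1 library gave 2 to 4 members at week 1, 13 to 20 at week 4 (13 without Δ/Δ replicate 3, the deepest library), 11 to 16 for the interaction, 19 to 24 for time in wt/wt, 17 to 24 for time in Δ/Δ and 0 to 0 in sorted cells. With the replicate block, 20 members were called at week 4, 13 for the interaction, 22 for time in wt/wt, 24 for time in Δ/Δ and 0 in sorted cells. The block lost the week 4 calls of Inhba and Id4 (adjusted p = 0.0572 and 0.0512). Fits of only the 6 libraries compared called 7 members at week 1 and 14 at week 4. At week 4 these fits lost the calls of Id1, Id4, Nog, Inhba, Tgfb2, Bmp2 and Gdf6 (adjusted p = 0.0521 to 0.117). Over all genes, week 1 calls numbered 134, against 453 with DESeq2, 237 with only the 6 libraries, 85 with the stricter filter and 49 to 181 with 1 library left out, and week 4 calls numbered 2062, against 1267 with only the 6 libraries. Chosen after seeing the data, a block within each genotype called 24 members for time in each genotype, and sorted cells without both libraries rich in megakaryocyte markers gave 0.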
